A study of Mus musculus with 24 samples.

Results

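The regions described here are 2110 pairs of Rev-erbα ChIP-exo borders from mouse liver whose borders lie 28 to 30 bp apart. They were chosen by their spacing, which had been picked out as a local maximum already known to be rich in C/EBP motifs. Each border on the plus strand of chromosomes 1 to 19 and X was joined to the next border downstream on the minus strand, which gave 122270 pairs, of which 26535 were 5 to 60 bp apart. The 2110 pairs comprised 734 at 28 bp, 956 at 29 bp and 420 at 30 bp. Because the measured positions chose the pairs, their number and the signals of their borders are given as a description, with no test.

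The study mapped binding of Rev-erbα (gene Nr1d1) and of partner proteins in mouse tissues, with 24 samples in 16 groups, of which 3 groups were used here. Rev-erbα was profiled in liver by ChIP-exo (2 libraries) and by ChIP-seq in eWAT, the epididymal fat depot (2 libraries), and in brain, as tissue of the ventral tegmental area (1 library). The mice of these 3 groups were C57BL/6J wild type, sampled at zeitgeber time 10, that is 10 h after lights on, and the labels name no engineered allele or treatment for them. Liver was represented by 1 list of 245360 borders for both libraries, eWAT by 1 list of 9016 peaks and brain by 1 list of 10687 peaks. No value per library could therefore be given, sequencing depth is unknown, and comparisons below rest on shares of regions with 95% Wilson intervals, which cover counting error only. Neighbouring regions are not independent replicates of a condition.

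In ChIP-exo an exonuclease digests each strand of precipitated DNA until it meets crosslinked protein, so a plus border and the next minus border can flank 1 bound site, and their distance reflects the width of the protected DNA. Rev-erbα is a heme-binding nuclear receptor that represses transcription in the circadian clock, and it binds a response element (RORE) built on the core AGGTCA. C/EBP factors are bZIP proteins abundant in hepatocytes, which bind as dimers to an 8-base palindrome whose 2 arms each read TTGC. The PAR bZIP factors DBP, TEF and HLF and their antagonist NFIL3 are clock-controlled bZIP proteins that bind the closely related D-box. The D-box is counted here as a TTAC arm joined to a TTAC or TTAT arm.

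Sequences of strong members show the arrangement that recurred in them. Each line below runs 10 bases beyond either border on the plus strand of mm9, and capitals mark the motif at the middle. The first 4 hold a D-box in an intron of Nr1d1 (chr11:98635383-98635412), 116 bp upstream of a start of Per2 (chr1:93356008-93356037), in an intron of Igsf8 (chr1:174240358-174240387) and 294 bp upstream of a start of Coq10b (chr1:55109306-55109335).
Nr1d1 intron: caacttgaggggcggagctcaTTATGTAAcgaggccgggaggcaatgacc
Per2 upstream: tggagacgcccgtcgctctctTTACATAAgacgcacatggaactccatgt
Igsf8 intron: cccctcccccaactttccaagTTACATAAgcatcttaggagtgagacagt
Coq10b upstream: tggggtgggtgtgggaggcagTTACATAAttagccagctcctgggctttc

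The next 3 hold an octamer with a TTGC arm. They lie 68014 bp upstream of a start of Mpp6 (chr6:49992212-49992241), 79784 bp upstream of a start of Sipa1l2 (chr8:128096380-128096409) and, at 28 bp, 11615 bp upstream of a start of Gpcpd1 (chr2:132425066-132425094). All 3 are intergenic.
Mpp6 upstream: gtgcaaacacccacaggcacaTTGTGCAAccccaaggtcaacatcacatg
Sipa1l2 upstream: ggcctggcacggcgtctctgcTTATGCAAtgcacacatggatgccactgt
Gpcpd1 upstream: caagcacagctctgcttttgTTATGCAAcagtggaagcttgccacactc

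The next 4 hold an octamer of the same build that is neither of those 2 kinds. They lie 126 bp upstream of a start of Katnal1 (chr5:149806911-149806940), in an intron of Rnf43 (chr11:87515893-87515922), 6348 bp upstream of a start of Cps1 (chr1:67163237-67163266) and, at 28 bp, 8624 bp downstream of a start of Pim3 in intergenic DNA (chr15:88701488-88701516).
Katnal1 upstream: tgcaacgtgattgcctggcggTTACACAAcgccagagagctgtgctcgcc
Rnf43 intron: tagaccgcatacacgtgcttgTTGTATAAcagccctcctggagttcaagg
Cps1 upstream: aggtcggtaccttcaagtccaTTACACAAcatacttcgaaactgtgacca
Pim3 downstream: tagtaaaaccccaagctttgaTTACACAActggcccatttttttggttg

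The last 2 are exceptions, shown for clock motifs other than the octamers. The strongest member with a central E-box, the site of CLOCK and BMAL1, lies 148 bp upstream of a start of Per1 (chr11:68908556-68908585). The strongest member with a RORE lies in an intron of Cry1 at 28 bp (chr10:84624656-84624684), and there the capitals lie at the plus border and not at the middle. Such letters also occur unmarked above, the E-box CACGTG in the Rnf43 line and the core AGGTCA in the Mpp6 line.
Per1 upstream: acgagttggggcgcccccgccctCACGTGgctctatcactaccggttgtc
Cry1 intron: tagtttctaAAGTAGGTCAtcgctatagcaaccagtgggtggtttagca

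The spacing of 29 bp stood out as a local maximum in the border list. There were 595 pairs at 27 bp, 734 at 28 bp, 956 at 29 bp, 420 at 30 bp and 469 at 31 bp, and each spacing of 31 to 40 bp held 409 to 505 pairs (median 458.5). A larger maximum lay at 25 bp (1562 pairs), and 3319 pairs were 24 to 26 bp apart. The count at 30 bp was thus inside the range of the wider spacings, while those at 28 and 29 bp were above it.

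The motifs in these regions were only in part those of C/EBP. The C/EBP motif TTGCNNAA, searched on both strands in the pair and 10 bp to each side, was in 375 of the 2110 members (17.8%, interval 16.2 to 19.5). It was in 8.29% of the pairs 24 to 26 bp apart, in 8.81% of all other pairs 5 to 60 bp apart, and in 2.11% of 4220 windows of the same width 1000 bp to each side of the members. The search window widens with the spacing, so here and below the shares of other pairs come from windows of other widths. The full C/EBP palindrome TTGCGCAA was in 11 members (0.521%, interval 0.291 to 0.931), 0.331% of the pairs at 24 to 26 bp (0.185 to 0.593), 0.274% of the other pairs (0.216 to 0.348) and none of the windows to the side, so it was not resolved from the other pairs. The D-box, TTACGTAA or TTATGTAA, was in 217 members (10.3%, interval 9.06 to 11.7), against 0.573% of the pairs at 24 to 26 bp, 0.991% of the other pairs and 0.19% of the windows to the side. As a whole, the members thus had both motifs more often than each of these sets, with intervals that do not overlap. At 28 bp the shares were 22.2% (C/EBP) and 6.0% (D-box), and at 29 bp 17.5% and 17.4%. At 30 bp they were 10.7% (8.1 to 14.0) and 1.67% (0.81 to 3.4), and both intervals overlap those of the other pairs. At 27 bp, outside the members, C/EBP was in 15.1% of pairs (12.5 to 18.2), an interval that overlaps the members'. The D-box was in 0 of the 595 pairs there. For C/EBP the excess in the members restates what was known when the spacing was chosen and is given as a description.

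The members' octamers shared a common build, TT, then 4 bases alternating purine and pyrimidine, then AA. Of 2110 members, 726 (34.4%, interval 32.4 to 36.5) had such an octamer with its middle within 3 bp of the middle of the pair, called central here. It was central in 3.83% of the pairs at 24 to 26 bp and in 1.6% of all other pairs at 5 to 60 bp. By arm, 211 of the members' central octamers were a D-box, 245 had at least 1 TTGC arm (C/EBP octamers), and 270 were other octamers (TTACACAA, TTATACAA, TTATATAA or TTGTACAA). C/EBP octamers therefore made up 33.7% of the central octamers (interval 30.4 to 37.3). Their name follows the TTGC arm alone, and 124 of the 245 were TTATGCAA, whose other arm reads TTAT. Which proteins bound them was not tested. A central E-box was in 62 members (2.94%), and 1322 members (62.7%) had neither.

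The kind of octamer changed with the spacing by single base pairs. At 28 bp, 15.7% of 734 pairs held a central C/EBP octamer, 5.45% a D-box and 8.86% an other octamer. At 29 bp the order was different, with 11.7% of 956 pairs holding a C/EBP octamer, 17.2% a D-box and 20.4% an other octamer. At 30 bp the shares were 4.29%, 1.67% and 2.38% of 420 pairs. A central octamer of any kind was in 29.97% of the pairs at 28 bp, 49.3% at 29 bp and 8.33% at 30 bp.

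Just outside the limits, 72 of 595 pairs at 27 bp (12.1%) and 18 of 469 pairs at 31 bp (3.84%) had a central octamer. Of the 72 at 27 bp, 51 were C/EBP octamers and 0 were a D-box, which allows a share of up to 5.07% by the Wilson interval. Read over the central octamers alone, C/EBP octamers made up 70.8% at 27 bp (interval 59.5 to 80.1), 52.3% at 28 bp (45.7 to 58.8) and 23.8% at 29 bp (20.2 to 27.8). The D-box made up 18.2% at 28 bp (13.7 to 23.8) and 34.8% at 29 bp (30.7 to 39.2). Of the 35 central octamers at 30 bp, 18 were C/EBP octamers (51.4%, 35.6 to 67.0), a share above that at 29 bp by intervals that do not overlap.

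**Figure D1:**
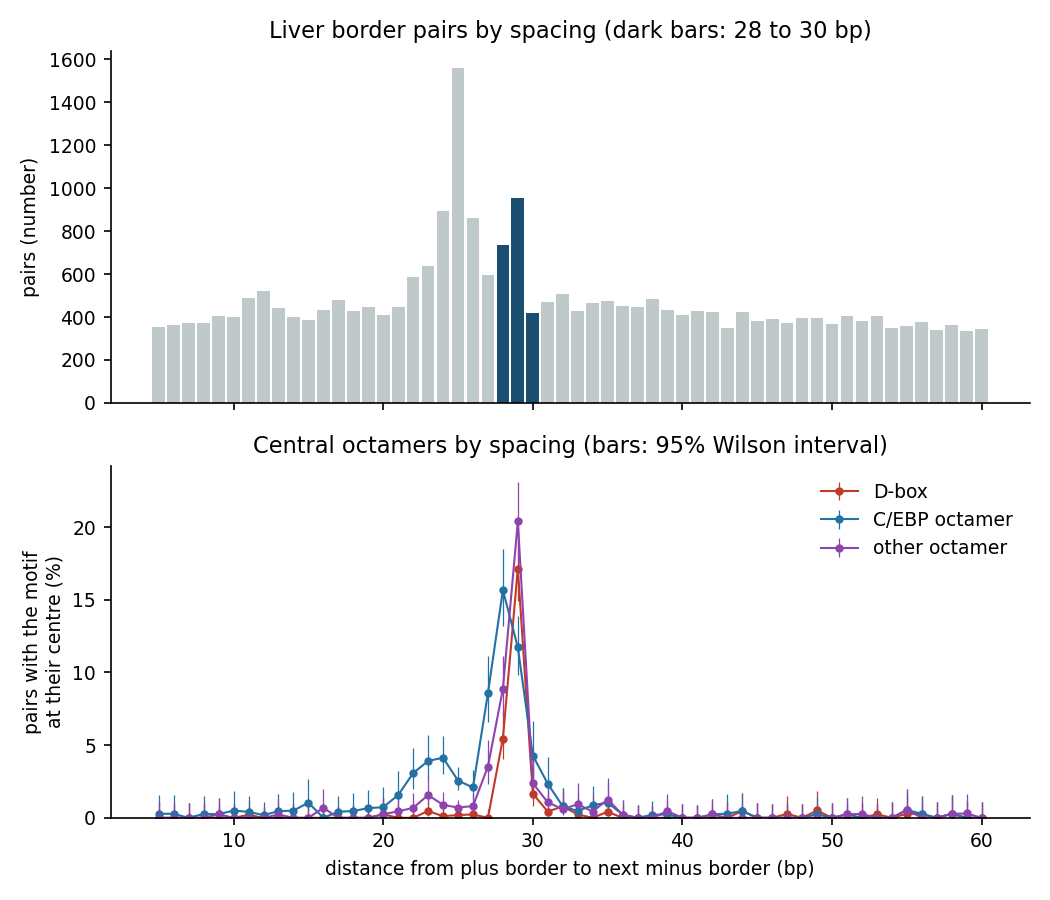
Top, number of liver border pairs (y axis) at each spacing in bp (x axis), with the pairs 28 to 30 bp apart in dark; bottom, share of pairs in percent whose middle holds a D-box, a C/EBP octamer or an other octamer, with 95% Wilson intervals as bars. The D-box and the other octamers peak at 29 bp, where they reach 17.2% and 20.4%. The C/EBP octamers are highest at 28 bp, at 15.7% (13.2 to 18.5), an interval that overlaps that at 29 bp (9.83 to 13.9).

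Single octamers differed in the share of their members that were at 29 bp. TTACATAA, the D-box that reads TTATGTAA on the other strand, was the most frequent, central in 188 members, of which 79.8% were at 29 bp. TTATATAA (57 members) and TTATACAA (59 members) had 87.7% and 78.0% at 29 bp. TTACACAA (152 members) had 63.8% and TTATGCAA (124 members), which joins a TTAT to a TTGC arm, had 53.2%. TTGCACAA (82 members) had 32.9% at 29 bp, and 44 of its members were at 28 bp. A TTAT arm was in 66.2% of the central octamers at 29 bp (interval 61.9 to 70.4) and in 45.9% of those at 28 bp (39.5 to 52.5). The rarer forms were TTACGCAA with 30 members, TTACGTAA with 23, TTGCGCAA with 9 and TTGTACAA with 2.

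The octamer had a fixed place between the borders. At 29 bp, 453 of the 471 central octamers (96.2%) began 11 bp from the plus border and ended 11 bp before the minus border. Central octamers were already limited to within 3 bp of the middle. Of all 493 octamers in these pairs and 10 bp to each side, 91.9% began there. At 28 bp, 97 began at 10 bp and 121 at 11 bp, so the missing base was on the plus side or the minus side in similar numbers. At 30 bp, 12 began at 11 bp and 19 at 12 bp. Either strand could carry the octamer, since TTACATAA was on the plus strand in 97 members and on the minus strand in 91, and TTACACAA in 77 and 75.

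**Figure D2:**
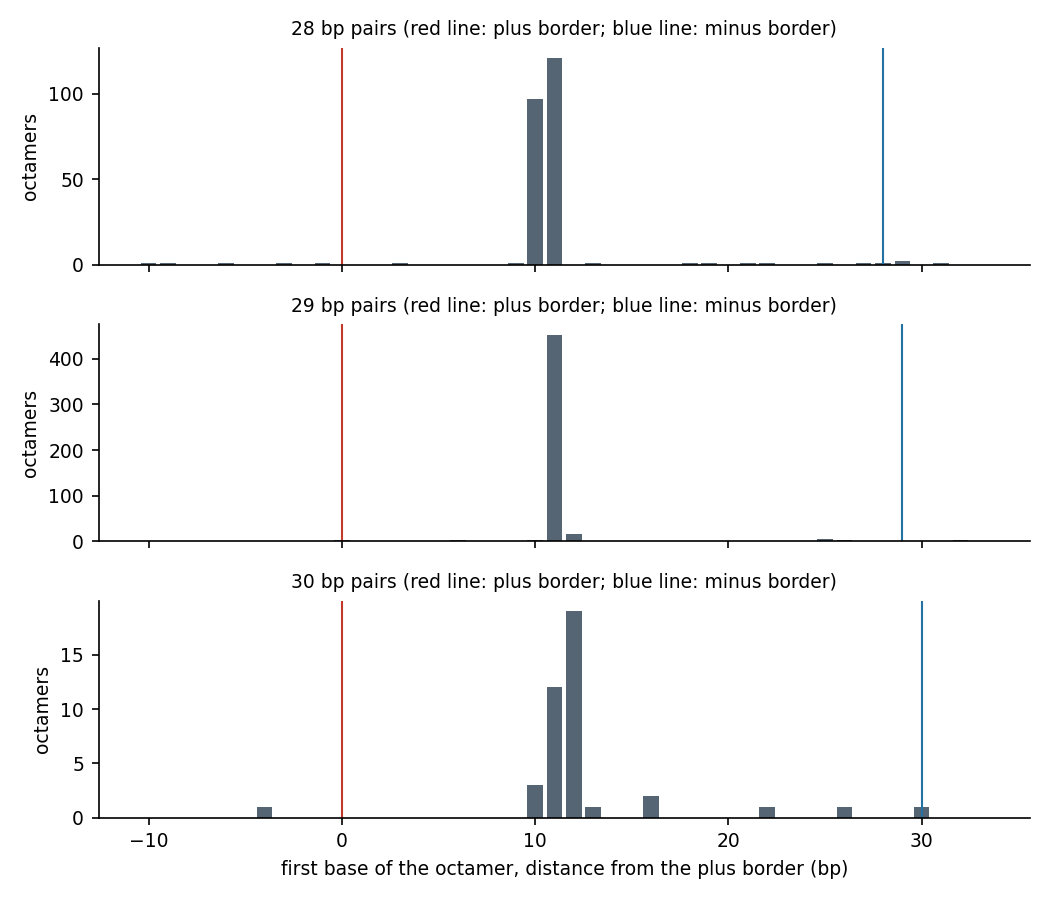
Number of octamers (y axis) by the distance of their first base from the plus border in bp (x axis), for the pairs 28, 29 and 30 bp apart, with the plus border in red and the minus border in blue. At 29 bp, 453 octamers begin at 11 bp, and at 28 bp they divide between 10 bp (97) and 11 bp (121).

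Bases next to the octamer were uneven as well. Among the 453 octamers at the fixed place in 29 bp pairs, the base before was G in 47.2% and T in 5.3%, and the base after was C in 47.7% and A in 5.74%. The preferred bases at both ends are the same base when each strand is read towards the octamer. The members at Igsf8 and Coq10b have G before it but not C after it.

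Many members with no octamer had a near match in the same place. Of 485 pairs at 29 bp that had no central octamer, 95 (19.6%, interval 16.3 to 23.4) differed from the octamer build at no more than 1 base when read from 11 bp. At the other 21 starts between the borders this share was 0 to 1.65%, with a median of 0.206%. No motif of the 19 searched was in 820 members (38.9%, interval 36.8 to 40.96).

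Motifs of other factors were in fewer members than the octamers. The HNF6 motif, ATCAAT or ATTGATTT, bound by the hepatocyte factor HNF6, was in 5.88% of the members (interval 4.95 to 6.96), against 36.9% of the pairs at 24 to 26 bp (35.2 to 38.5) and 1.59% of the windows to the side. The E-box CACGTG was in 5.64%, against 7.2% of the other pairs. FOXA motifs, TGTTTAC or TGTTTGC, were in 4.08% (3.31 to 5.01), below the 5.7% of the other pairs (5.39 to 5.97), whose windows differ in width. At 24 to 26 bp FOXA motifs were in 3.6%. The AP-1 site TGANTCA was in 1.66%, with an interval that overlaps that of the other pairs (2.17%). The composite C/EBP-ATF site TGATGCAA was in 1.71% (1.2 to 2.4). That was above the 0.98% of the other pairs (0.86 to 1.11) and the 0.75% at 24 to 26 bp (0.51 to 1.11). The CTCF motif was in 0 of the 2110 members, with an upper bound of 0.182%.

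Elements of Rev-erbα itself were searched in the same window, the pair and 10 bp to each side. AGGTCA was in 169 members (8.01%, interval 6.93 to 9.25), close to the 7.81% of the other pairs and above the 3.29% of the windows to the side. The full RORE was in 12 members (0.569%, interval 0.326 to 0.992), against 0.181% of the pairs at 24 to 26 bp (0.0829 to 0.394), 0.311% of the other pairs (0.249 to 0.389) and 0.0948% of the windows to the side (0.0369 to 0.244). The members' share was thus above that of the windows to the side, while its interval overlapped those of both sets of pairs. Within 50 bp of the pair the RORE was in 1.14% of the members (0.765 to 1.69), against 1.02% of the other pairs and 0.355% of windows of that width 1000 bp away (0.215 to 0.586). Within 50 bp of the pair AGGTCA was in 21.5% of the members (19.8 to 23.3), against 19.7% of the other pairs, and 8.27% of windows of that width 1000 bp away from the members. The members with a central octamer had it in 19.8% and those with neither octamer nor E-box in 22.2%, with intervals that overlap.

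Border signals were higher in members with an octamer. The signal is the authors' value per border, on a scale the files do not define, and a pair is described here by its weaker border. The weaker border ran from 0.136 to 166 in the members, with a median of 0.634 (quartiles 0.405 and 1.06). In the pairs at 24 to 26 bp the median was 0.689, and in the other pairs at 5 to 60 bp it was 0.529. By spacing the median was 0.571 at 27 bp, 0.577 at 28 bp, 0.75 at 29 bp, 0.533 at 30 bp and 0.501 at 31 bp. Members with a central octamer had a median of 0.988, and those with neither octamer nor E-box had 0.516. The D-box (1.04), the C/EBP octamers (0.979) and the other octamers (0.976) were close to each other, with quartiles of 0.548 and 1.68, 0.666 and 1.5, and 0.628 and 1.73.

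The signals of both borders were within 2-fold of each other in 1548 members (73.4%), against 71.98% of the pairs at 24 to 26 bp and 75.1% of the other pairs, so the members were close to both sets. The minus border was the higher in 1064 members (50.4%). No other border lay within 50 bp of the middle of 925 members (43.8%), while 706 had 1 other and 479 had 2 or more. Only 70 members were within 1 kb of another member, and 0 shared a minus border with another member. Sharing with pairs of other spacings was not excluded. Of the 2110 members, 1829 remained when pairs had to be reciprocal, that is, with no other plus border closer to the minus border.

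**Figure D3:**
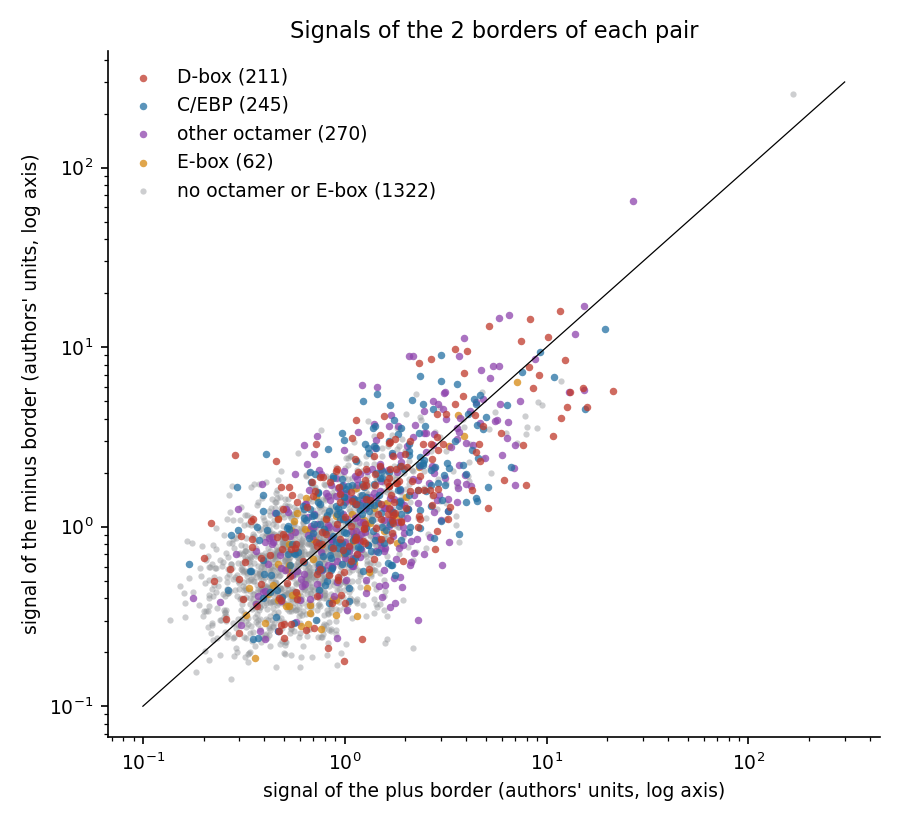
Signal of the minus border (y axis, log scale, the authors' units) against that of the plus border (x axis, log scale, the authors' units) for each of the 2110 pairs, coloured by the motif at the middle, with a line where both are equal. Pairs with a central octamer lie mostly in the upper part of the cloud, and 1 pair with neither octamer nor E-box stands far above the rest at 166 and 257.

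The share with a central octamer followed the signal. With the members divided into 5 groups of 422 pairs by the weaker border, the share was 13.5% in the weakest group, then 18.5%, 29.1% and 41.9%, and 69.0% in the strongest group (interval 64.4 to 73.2). In the strongest group 20.4% had a D-box, 22.5% a C/EBP octamer and 26.1% an other octamer, and 66.4% of its pairs were at 29 bp, against 37.2% of the weakest group. In the weakest group the D-box (6.4%) was more frequent than the C/EBP octamers (3.32%) and the other octamers (3.79%), with intervals that overlap. Among the 100 strongest members, 79 had a central octamer, 71 were at 29 bp and 1 was at 30 bp.

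**Figure D4:**
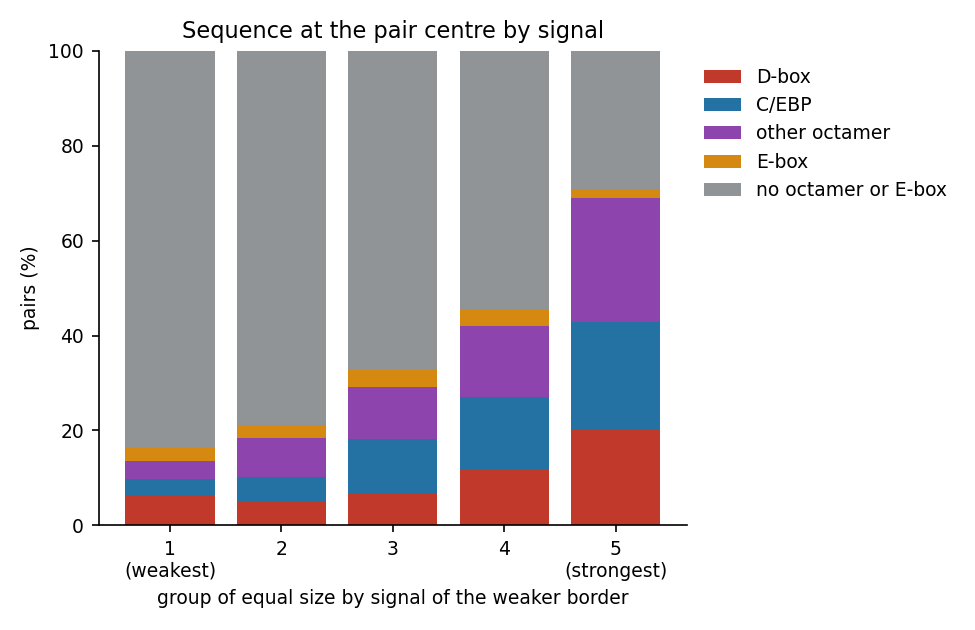
Share of pairs in percent (y axis) with each motif at the middle, in 5 groups of 422 pairs ordered by the signal of the weaker border (x axis). The 3 kinds of octamer together grow with signal, to 69.0% in the strongest group.

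The strongest members were at 29 bp and carried an octamer with few exceptions. Of the 12 strongest, 11 had a central octamer and 11 were at 29 bp. The pair upstream of Katnal1, a gene for a katanin-like microtubule-severing ATPase subunit, had signals of 26.8 (plus) and 65.2 (minus). The pair in Rnf43, a ubiquitin ligase gene of the Wnt pathway, had 15.3 and 17.0, and that upstream of Mpp6 had 19.5 and 12.6. The pair upstream of Cps1, the first enzyme of the urea cycle, had 13.8 and 11.9.

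D-box pairs followed closely in this order. The pair upstream of Coq10b had 11.7 and 15.8, and the pair in Itpr2, an inositol trisphosphate receptor gene, had 10.2 and 11.4. That in Nr1d1 had 12.4 and 8.53, that in Igsf8 had 8.27 and 14.4, and that in Mtss1 had 8.15 and 7.72. The Sipa1l2 pair (9.29 and 9.38) and the Pim3 pair (8.72 and 8.61) complete the 12 together with the strongest of all. That one (166 and 257), in an exon of the predicted gene Gm10800 on chromosome 2 at 98507286 to 98507315, had no motif searched. It lies in a stretch of that chromosome, 98502461 to 98507315, that held 10 of the 13 borders with a signal over 50 on chromosomes 1 to 19 and X.

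Of the members, 20.6% (434) had a start of a protein-coding gene within 1 kb (interval 18.9 to 22.4), 8.15% were in an exon, 47.6% in an intron and 44.3% between genes. The other pairs were close to this, with 22.1% near a start, 9.37% in an exon, 44.5% in an intron and 46.1% between genes. The members' median distance to a start was 10490 bp. Members with a central octamer were near a start in 12.8% (10.6 to 15.4), those with neither octamer nor E-box in 23.9% (21.7 to 26.3) and those with an E-box in 40.3% (29.02 to 52.8). Octamer members thus lay away from starts more often. The median GC content of the bases between the borders was 43.3% for the D-box and 45.2% for C/EBP octamers. It was 51.7% for members with neither octamer nor E-box and 61.3% for the E-box. These bases include the motif itself, and the octamers are rich in A and T, so the motif sets part of these differences. Whether GC content outside the motif had a part in the distance to starts was not tested. Members per Mb numbered 0.639 to 1.42 on the autosomes and 0.144 on chromosome X, and the other pairs 7.23 to 15.1 and 1.57.

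Peaks of Rev-erbα in other tissues are independent of the rule that chose the members, but with 1 list per tissue no test over samples was possible. A peak centre lay within 100 bp of the middle of 149 members in eWAT (7.06%, interval 6.05 to 8.24) and of 137 members in brain (6.49%, interval 5.52 to 7.63), and 31 members had both. For pairs at 24 to 26 bp the shares were 3.28% (2.73 to 3.95) in eWAT and 3.53% (2.95 to 4.21) in brain. For the other pairs at 5 to 60 bp they were 5.18% (4.91 to 5.46) and 5.74% (5.46 to 6.04). The members' share in eWAT thus lay above both sets, and in brain its interval overlapped that of the other pairs. The eWAT share was not particular to 28 to 30 bp. It was 7.9% at 27 bp (5.99 to 10.35) and 6.61% at 31 bp (4.7 to 9.23), with intervals that include the members' share. Within the members it was 7.22% at 28 bp, 8.47% at 29 bp and 3.57% at 30 bp (2.18 to 5.81). With border p-values of at most 0.01 the members' eWAT share was 4.61% of 152 pairs. The other pairs were not counted under this limit, so no comparison could be made there.

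D-box members had a peak in 11.8% in eWAT (interval 8.16 to 16.9) and 11.4% in brain (7.76 to 16.4). C/EBP octamer members had one in 10.2% in eWAT (7.01 to 14.6) and 5.31% in brain (3.13 to 8.87), and the other octamers in 9.63% (6.66 to 13.7) and 5.93% (3.68 to 9.41). The 62 members with a central E-box had 14.5% (7.83 to 25.3) and 8.06% (3.49 to 17.5). Members with neither octamer nor E-box had 4.84% (3.81 to 6.14) and 5.98% (4.82 to 7.39). In eWAT all 3 kinds of octamer and the E-box were thus above the members with neither, and in brain the D-box was, by intervals that do not overlap. The intervals of the 3 kinds of octamer overlap each other in eWAT and in brain, so a difference between kinds was not resolved in either tissue. Among the C/EBP forms a brain peak was near 10 of 124 members with TTATGCAA, 1 of 82 with TTGCACAA, 0 of 30 with TTACGCAA and 2 of 9 with TTGCGCAA, and among the D-box forms near 21 of 188 with TTACATAA and 3 of 23 with TTACGTAA.

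Distance to a start and signal moved with these shares. Near a start, 10 of 30 D-box members had a brain peak (33.3%, interval 19.2 to 51.2), against 14.2% of 316 members with neither octamer nor E-box (10.8 to 18.5). Away from starts, brain peaks were near 7.73% of the D-box members (4.66 to 12.6) and 3.38% of those with neither (2.43 to 4.69). In the strongest of the 5 signal groups eWAT peaks were near 15.4% of the members and brain peaks near 10.9%, against 1.66% and 5.92% in the weakest. Within the strongest group, an eWAT peak was near 16.8% of 291 members with a central octamer (12.98 to 21.6) and 11.4% of 123 members with neither octamer nor E-box (6.9 to 18.2). There the intervals overlap, and the part of the signal in the difference above was not tested further.

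**Figure D5:**
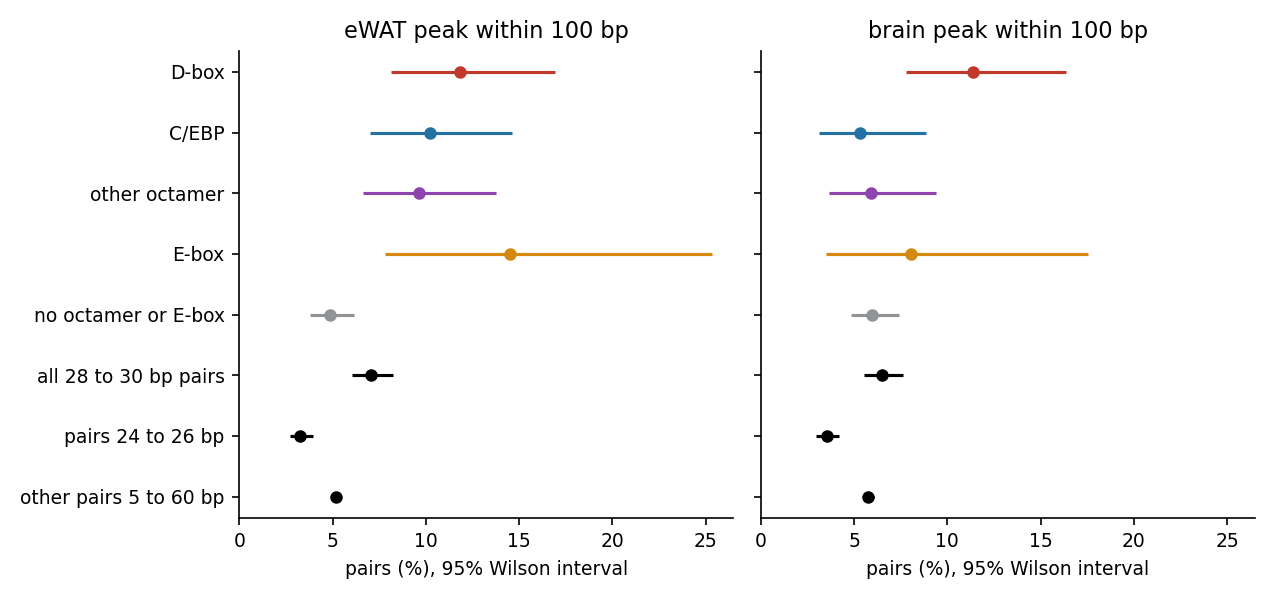
Share of pairs in percent (x axis) with an eWAT peak (left) or a brain peak (right) centred within 100 bp, by motif at the middle and, below, for all 28 to 30 bp pairs, the pairs 24 to 26 bp apart and the other pairs 5 to 60 bp apart (y axis), with 95% Wilson intervals as bars. The D-box members lie at 11.8% in eWAT and 11.4% in brain, and the C/EBP octamers at 10.2% and 5.31%.

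The peaks that coincided with members scored high within their own lists. The authors' peak score had a median of 25.3 near members in eWAT, against 14.2 over the list, and of 40 near members in brain, against 25.5 over the list. Near members with neither octamer nor E-box the medians were 25.8 in eWAT and 36.4 in brain. Scores near the other pairs were not computed, so the high scores are not shown to be particular to the members. Brain peaks near D-box members had a median score of 63.6, and 5 of these 24 peaks were among the 100 highest of the brain list. The 6 strongest members with a peak in both tissues were those at Katnal1, Itpr2, Igsf8, Per2, Cpeb3 and Rgs8, and all but the Katnal1 pair had a D-box. The Per2 pair coincided with the peak ranked 6 in eWAT and 6 in brain, the Igsf8 pair with those ranked 18 and 12, and the Katnal1 pair with those ranked 15 and 13.

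Genes near the members were read against all protein-coding genes. Of 22350 genes, 1218 had a member within 10 kb of a start, which is 5.45%, and 367 had a member with a central octamer, which is 1.64%. The counts of the lists below stand beside these shares with no test, since the lists were chosen with results of these data known. In all, 199 of the 200 listed genes were found in the annotation. The lists overlap in part, so their counts are not separate observations.

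Core clock genes had members most often of the lists of 10 or more genes, 9 of 23 (39.1%, interval 22.2 to 59.2), and 5 of 23 had one with a central octamer. Per1 and Per2 encode period proteins that repress CLOCK and BMAL1. The Per2 pair had signals of 7.5 (plus) and 10.8 (minus). Per1 had 3 members, all at 29 bp, with 7.11 and 6.41 at the E-box, 4.85 and 3.48 at a C/EBP octamer 20 bp upstream of another start, and 3.18 and 2.62 at a pair without either motif.

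Of the other clock genes, Nr1d1, Ciart and Nfil3 had D-box members. Nr1d1 itself had the D-box pair given above, 1156 bp downstream of a start. Ciart, a repressor of CLOCK and BMAL1, had a D-box pair 648 bp upstream of a start (15.8 and 4.66) and a C/EBP octamer pair 1982 bp downstream (0.758 and 1.33). Nfil3, whose protein binds the D-box as a repressor, had 2 D-box pairs, with 2.16 and 1.79 at the one 4698 bp downstream of a start and 0.53 and 1.66 at the one 1280 bp downstream. The members at Tef (1.69 and 1.79), Hlf (0.824 and 1.17) and Cry2 (0.564 and 0.44) had neither octamer nor E-box. So 4 of the 9 clock genes with a member, Nr1d1, Per2, Ciart and Nfil3, had a D-box member within 10 kb of a start. The share of all genes with a D-box member was not computed, so this count has no background. For any central octamer that share was 1.64%.

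Genes of the corepressor that Rev-erbα recruits included 2 of 6 with a member, both with a central octamer. Ncor1, the main corepressor partner of Rev-erbα in liver, had an other octamer in an intron (1.85 and 0.763). None of the 5 C/EBP family genes found had a member within 10 kb, which with 5 genes allows a share of up to 43.5%.

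Metabolic genes of hepatocytes were near members too. Of 36 hepatocyte genes, 10 had a member (27.8%, interval 15.9 to 44.0) and 6 had one with a central octamer. Besides Cps1, the highest were Pck1, the rate-limiting enzyme of gluconeogenesis, with an other octamer 216 bp upstream of a start (4.83 and 5.13), and Trf, the plasma transferrin, with an other octamer in an intron (3.08 and 4.52).

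Of 28 genes of lipid and bile acid metabolism, 8 had a member, and 4 had one with a central octamer. The highest was Ppara, the fatty acid-sensing nuclear receptor, with a D-box in an intron (2.67 and 2.9). Elovl3, a fatty acid elongase, had a pair with neither motif 35 bp downstream of a start (1.7 and 1.41). Plin5, a lipid droplet protein, was counted through a pair with neither motif (1.25 and 1.04) in an intron of Plin4. That pair lay 945 bp from a start of Plin4 and 8441 bp from a start of Plin5. Of 19 genes of gluconeogenesis and amino acid catabolism 5 had a member, among them Cps1, Pck1, G6pc (1.51 and 1.29), the glucose-6-phosphatase, and Tat (1.51 and 0.786), tyrosine aminotransferase. Cps1, Pck1, G6pc and Tat were also counted among the hepatocyte genes.

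Acute phase genes, many of them known C/EBP targets, had a member in 2 of 19. These were Crp, C-reactive protein, with an other octamer 512 bp upstream of a start (2.77 and 1.21), and Cp, ceruloplasmin, with neither motif (0.443 and 0.386). The pairs at 24 to 26 bp, within 10 kb of 7.22% of all genes, were near 7 of 19 acute phase genes, 10 of 36 hepatocyte genes, 9 of 28 lipid and bile acid genes, 6 of 19 gluconeogenesis and amino acid genes, 5 of 23 core clock genes and 2 of 6 corepressor genes. The members' counts in the hepatocyte, lipid, gluconeogenesis and corepressor lists were thus equal to these or 1 lower.

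Lists of other cell types were short, and their counts are read against 5.45% of all genes. The counts were 0 of 12 Kupffer and immune genes, 0 of 14 endothelial and stellate genes, 0 of 7 cholangiocyte genes and 0 of 16 neuron genes. Of 14 adipocyte genes 1 had a member, Plin1, through a pair in an exon of its neighbour Pex11a, and of 12 housekeeping genes 1 had, Pgk1. The intervals of these lists all include the share of all genes (that for 0 of 14 reaches 21.5%), so no difference from it was detectable.

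Most genes nearest to a member had only 1. The 2110 members had 1775 nearest genes by symbol, of which 1512 had 1 member, 208 had 2 and 55 had 3 or more. The most for 1 gene was 5, at Id2, Lpp, Myc and Trib1, which were picked out after their counts were seen. Of the 5 at each gene, a central octamer was in 0 at Id2, 2 at Lpp, 2 at Myc, the growth regulator, and 3 at Trib1, a regulator of C/EBPα breakdown.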

How the data were processed

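Rev-erbα ChIP-exo of liver and ChIP-seq of eWAT and brain were analysed from the authors' lists, and the other 19 samples were not used here. Per the file headers each border has a signal and a p-value (0.05 or lower), and the deposited peak lists have a score. The callers' settings, the combination of replicates and the depth are not given in the sources used. Bowtie 1.1.1 (ChIP-exo), Bowtie 0.12.8 (ChIP-seq), HOMER and mm9 are named per the submitters' processing notes.

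Pairs, motifs (exact letters, both strands) and distances were computed in Python 3.11.15 (numpy 2.4.6, pandas 2.3.3, scipy 1.17.1) on the mm9 genome with GENCODE M1 protein-coding genes, and checked on simulated data. Distances to a gene are from the middle of the pair to its nearest annotated start. No test was run, because each group had 1 list. Named were the 12 strongest members, up to 4 genes per list, every clock and C/EBP family gene with a member, and the 6 strongest members with a peak in both tissues. Members and lists were chosen with earlier results of these data known. The octamer kinds, the near matches, and the D-box, other octamer and E-box sequences were added after seeing the data. Results for some genes that this rule selects are not reported here.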

Additional observations from a re-analysis of the deposited data

Results flagged for a closer look

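Chromosome M, the mitochondrial genome, lay outside the chromosomes used and held 3 pairs 28 to 30 bp apart among its 7 pairs of up to 200 bp. All 3 were at 29 bp and had a central octamer of the other kind. Their signals were 77.8 (plus) and 84.4 (minus), 131 and 343, and 11 and 10.7. Both libraries share 1 list and the inputs were not analysed here, so no control value stands beside them.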

How the results depend on the processing

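Of 71 alternatives, 30 left a value within its interval or a count within 1.5 times, and 41 moved it. The cause was not tested beyond the smaller number of pairs that each limit leaves. With border p-values of at most 0.01, 152 pairs were left, with an eWAT peak in 4.61%, a brain peak in 5.26%, a start within 1 kb in 9.21%, a D-box in 15.8% and a central octamer in 55.3%; 68 genes and 0 hepatocyte genes had a member. With reciprocal pairs alone the central octamer was in 36.6%. At exactly 29 bp (956 pairs) the eWAT share was 8.47%, the brain share 8.37%, the start share 18.3%, the D-box 17.4% and the central octamer 49.3%, with 530 genes and 5 hepatocyte genes. Above the median signal the C/EBP motif was in 24.3%, centrally in 20.4%, against 17.8% and 14.1% in all members; eWAT was 10.3%, brain 7.68%, starts 17.3%, D-box 14.7% and central octamer 51.1%, with 612 genes.

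The C/EBP share was 0.521% for the palindrome alone, 45.3% for the arm TTGC, 19.5% with the composite site, 15.8% between the borders alone and 23.7% with 50 bp on each side. With peak centres within 50 bp eWAT was 5.83% and brain 4.45%, within 200 bp brain was 8.15%, and with peaks above their list's median score eWAT was 5.92% and brain 5.21%. Starts within 500 bp gave 16.8% and within 2 kb 26.3%. Genes with a member within 1 kb numbered 468 (5 hepatocyte genes) and within 50 kb 3473 (17). Leaving out the stretch of very high borders, chosen after seeing the data, moved no result by more than its interval. No paired analysis was possible because both libraries share 1 list, and leaving out a replicate was not run for the same reason. Unknown depth limits every share: borders and peaks under the authors' thresholds are not in these lists.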
